A study of Saccharomyces cerevisiae with 3 samples.

Results

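The proteasome genes of budding yeast, Saccharomyces cerevisiae, were followed through a shift from pyruvate to glucose in a gcr1 null mutant compared with its wild type. The group held 32 genes of 5598 measured: 14 subunits of the 20S core particle, 17 subunits of the 19S cap and RPN4, and each was found by its gene symbol in the platform annotation of the array. A gcr1 null mutant and a wild type strain were compared on pyruvate (0 min) and after 20 and 60 min of glucose. Both strains grew in YEP medium with 3% pyruvate to early or mid log phase before glucose was added, and GCR1 encodes an activator of glycolytic gene transcription. For each time point, RNA of the null mutant and of the wild type shared 1 Agilent array, labelled with Cy5 and Cy3, so that each value is a log2 ratio of the strains within an array. For the strain background, the gcr1 allele and the number of cultures, nothing is stated in the labels.

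The proteasome is the protease that breaks down proteins tagged with ubiquitin. Its 20S core is a barrel of stacked rings, in which outer rings of alpha subunits gate the entrance and inner rings of beta subunits hold the protease sites. The 19S cap sits on the end of the barrel. Its base carries a ring of ATPases, Rpt subunits, that unfold substrates, and its lid removes the ubiquitin chain. In yeast the activator Rpn4 binds a shared element upstream of proteasome genes and is itself a short-lived substrate of the proteasome.

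With 1 array per time point there were no replicates, no p-values and no SD between samples, and each comparison describes these 3 arrays only. In bulk RNA, a change in the share of cells that express a gene and a change in its RNA per cell cannot be told apart. The numerator of the ratio is not labelled. Null mutant over wild type is likely, because titles and design put the null mutant first. GCR1 itself (YPL075W), the inactivated gene, had log2 ratios of 0.97 before glucose, 0.91 after 20 min and 1.51 after 60 min. These go against that direction unless the GCR1 probes lie outside the deletion, and the probe positions were not used here. GPM1, a gene of glycolysis, had the lowest log2 ratio of 5596 genes before glucose, -5.55. The direction of the ratio was not tested with GPM1 or with other glycolytic genes. Values are therefore called positive, the side of GCR1, or negative. Neither word says in which strain a gene was higher, and positive should not be read as higher in the wild type. A difference of 2-fold is a log2 value of 1.0 in size. The error that could be measured was the difference between 2 probes of a gene on an array. It had a median of 0.11 on each array over all such genes, and its 95% limit, below which that share of pairs lay, was 0.41, 0.48 and 0.38 for the arrays at 0, 20 and 60 min. This error leaves out cultures, RNA preparations, labelling and arrays. Of the 32 proteasome genes, 22 had 2 probes and 10 had 1.

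The subunits were close to the typical gene before glucose, stood together on the positive side at 20 min, and were spread around 0 again at 60 min, while RPN4 was negative at 20 min. At 0 min the 31 subunits ranged from -0.26 to 0.59, with a median of 0.10 against 0.07 for all genes. Of the 31, 0 were at least 2-fold to either side at 0 min, where 1.09% of all genes were 2-fold positive and 2.25% 2-fold negative. At 20 min all 31 subunits were positive, ranging from 0.08 to 1.96 with a median of 0.62, a 1.53-fold difference. Of these, RPN12 (0.08), RPN9 (0.08) and RPN6 (0.09) were nearer 0 than the median difference of a probe pair, 0.11, so their side is uncertain. On that array 8 of 31 subunits (25.8%) were 2-fold positive or more, against 17.1% of all genes. The median of all genes there was -0.08, and 47.1% of them were above 0. The count of 8 depends on the settings. It was 17 at 1.5-fold, 1 at 3-fold and 9 once the arrays were centred on the median gene. Once the arrays were both centred and scaled to equal spread, the count was 2. Of all genes, 18.5% were 2-fold positive at 20 min after centring and 12.8% after centring and scaling. In that last setting the 2 of 31 subunits were a lower share than that of all genes. Shares of all genes at 1.5-fold and 3-fold were not counted. At 60 min the subunits ranged from -0.83 to 0.90, with a median of 0.19 against 0.05 for all genes. Again 0 of 31 were beyond 2-fold, where 16.2% of all genes were 2-fold positive and 13.6% 2-fold negative. The strip plot of core and cap subunits shows the 20 min values standing above 0 as a group and the values at the other times spread around it.

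**Figure D1:**
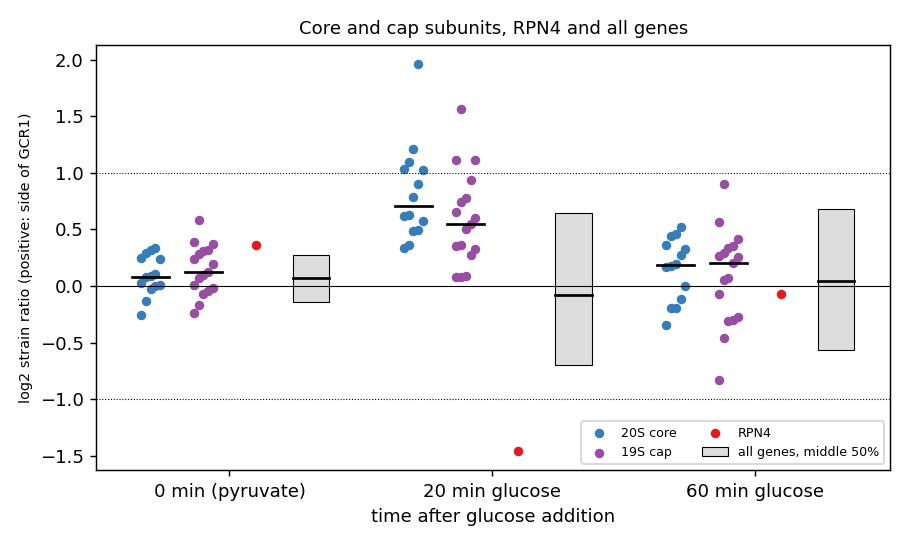
Log2 ratio of the strains (vertical axis, positive on the side of GCR1) at 0, 20 and 60 min after glucose (horizontal axis), with a point for each core subunit (blue), each cap subunit (purple) and RPN4 (red). Black bars are medians, and grey boxes span the middle 50% of all genes on that array. At 20 min the 31 subunits lie between 0.08 and 1.96 and RPN4 lies at -1.46.

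RPN4 (YDL020C), the activator, lay on the other side of 0 from all 31 subunits at 20 min. Its log2 ratio was 0.37 before glucose, -1.46 after 20 min and -0.07 after 60 min, from a single probe. The 20 min value is a 2.75-fold difference on the negative side, and 7.5% of all genes on that array were lower. A 2-fold negative value was held by 16.5% of all genes at 20 min. Set against the subunit median, the RPN4 ratio differed by 0.27, -2.07 and -0.26 at 0, 20 and 60 min. The RPN4 ratio at 20 min minus that at 0 min was -1.82, and 16.4% of all genes had a step of 2-fold downward there. The ratio at 60 min minus that at 20 min was 1.38, and 8.45% of all genes had a step of 2-fold upward there. No RPN4 value had the spacing of the lowest signals, ratios of small whole numbers. With a single probe there was no second reading of RPN4 on any array.

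**Figure D2:**
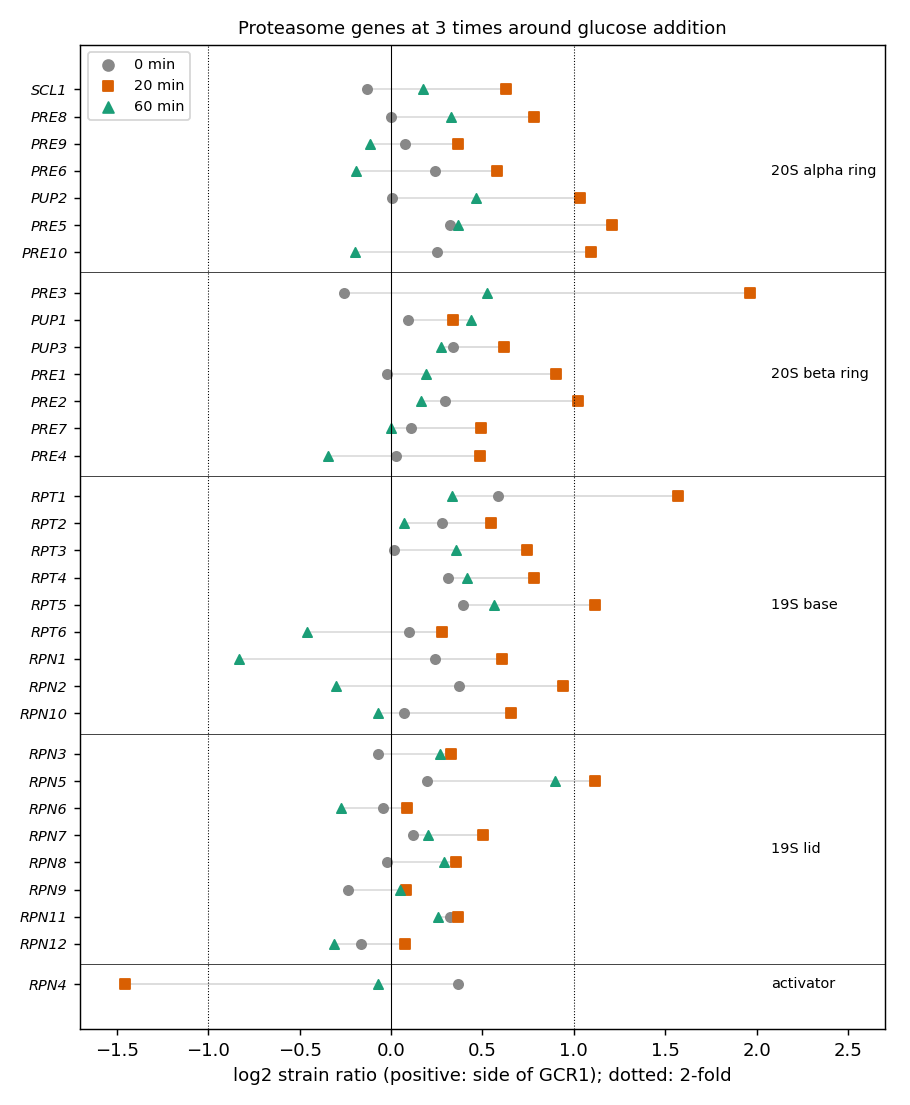
Log2 ratio of the strains (horizontal axis) for each of the 32 genes (rows, grouped by part of the proteasome), with a grey circle for 0 min, an orange square for 20 min and a green triangle for 60 min. Dotted lines mark 2-fold. The orange square is the rightmost mark in all rows but those of PUP1 and RPN4.

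The medians of core and cap lay within 0.16 of each other at each time. At 0 min the core median was 0.08 and the cap median 0.12, a difference of -0.04. At 20 min the core median was 0.71 and the cap median 0.55, a difference of 0.16. At 60 min they were 0.18 and 0.20, a difference of -0.02. The ranges of core and cap overlapped at all 3 times, and the differences could not be tested. At 20 min 5 of 14 core genes (35.7%) and 3 of 17 cap genes (17.6%) were at least 2-fold positive, against 17.1% of all genes.

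Within the core, the alpha ring had medians of 0.08, 0.78 and 0.18 at 0, 20 and 60 min, and the beta ring 0.09, 0.62 and 0.19. Of the alpha genes, 3 passed 2-fold at 20 min. PRE5 (YMR314W) stood at 0.32, 1.21 and 0.37 on the arrays for 0, 20 and 60 min. PRE10 (YOR362C) had 0.25, 1.09 and -0.20 at these times, and PUP2 (YGR253C) had 0.01, 1.03 and 0.46. The lowest alpha gene at 20 min was PRE9 (YGR135W), the core subunit that yeast can live without, with 0.08, 0.36 and -0.11. The remaining alpha genes were between 0.58 and 0.78 at 20 min. They were PRE6 (0.24, 0.58 and -0.19), SCL1 (-0.13, 0.63 and 0.18) and PRE8 (0.00, 0.78 and 0.33). One probe of PRE6 had the spacing of low signal at 60 min, the only such value among the 54 probes of these 32 genes on any of the 3 arrays.

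The 3 beta genes that encode the protease sites gave different values. PRE3 (YJL001W), the subunit with caspase-like activity, stood at -0.26 before glucose, 1.96 after 20 min and 0.52 after 60 min. It was the lowest of the 31 subunits before glucose and the highest at 20 min, a 3.90-fold difference. One PRE3 probe read -0.21, 2.15 and 0.50 at the 3 times, and the other read -0.31, 1.78 and 0.55. PRE2 (YPR103W), with chymotrypsin-like activity, had 0.29, 1.02 and 0.17. PUP1 (YOR157C), with trypsin-like activity, had 0.09, 0.34 and 0.44, and was the lowest core gene at 20 min and the subunit whose ratio was higher at 60 than at 20 min. That last step of PUP1, 0.10, is below the median difference of a probe pair. PRE3 and PUP1 thus stood 1.96 and 0.34 at 20 min, although their products sit in the same ring. The other beta genes were PUP3 (0.34, 0.62 and 0.28), PRE1 (-0.02, 0.90 and 0.19), PRE7 (0.11, 0.49 and 0.00) and PRE4 (0.02, 0.49 and -0.34), the lowest core gene at 60 min.

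In the cap, base and lid differed more from each other than core from cap did. The base had medians of 0.28, 0.74 and 0.07 at 0, 20 and 60 min, and the lid -0.03, 0.34 and 0.23. The base minus lid difference was 0.31 at 0 min, 0.40 at 20 min and -0.16 at 60 min, and could not be tested. All 9 base genes were positive at 0 min, against 3 of 8 lid genes and 59.2% of all genes, and at 60 min 5 of 9 and 6 of 8 were positive, against 52.1% of all genes. At 0 min RPT3, RPT6 and RPN10 of the base lay nearer 0 than the median difference of a probe pair, 0.11. So did RPN3, RPN6 and RPN8 of the lid.

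RPT1 (YKL145W), an ATPase, led the base with 0.59 before glucose, 1.57 after 20 min and 0.33 after 60 min. It was the highest subunit at 0 min and the second highest, after PRE3, at 20 min. RPT5 (YOR117W), whose tail helps to open the core gate, had 0.39, 1.12 and 0.56. RPT6 (YGL048C) was the lowest ATPase gene after glucose, with 0.10, 0.28 and -0.46. RPT3 (0.01, 0.74 and 0.36) and RPT4 (0.31, 0.78 and 0.42) lay close to each other after glucose, and RPT2 had 0.28, 0.55 and 0.07. At 60 min 5 of the 6 ATPase genes were positive, and the 3 base genes without an ATPase domain were negative. RPT2 on the positive and RPN10 on the negative side were nearer 0 than the median difference of a probe pair, 0.11. Among the 3 without an ATPase domain, RPN1 (YHR027C), a large scaffold that docks ubiquitin receptors, had 0.24, 0.61 and -0.83. RPN2 (YIL075C), the other large scaffold, had 0.37, 0.94 and -0.30. RPN10, a ubiquitin receptor, had 0.07, 0.65 and -0.07. RPN1 and RPN2 were each read by 1 probe.

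The lid had the lowest median of the 4 parts at 20 min, and RPN5 stood above the other lid genes of the group at that time. RPN5 (YDL147W), a scaffold subunit of the lid, had 0.20, 1.12 and 0.90 at 0, 20 and 60 min, the highest value of the 31 subunits at 60 min. One RPN5 probe read 1.14 after 20 min and 0.91 after 60 min, and the other 1.10 and 0.88. RPN11 (YFR004W), the enzyme that cuts ubiquitin chains from substrates, had 0.32, 0.36 and 0.25, a range smaller than the 95% limit of probe pairs. Its partner RPN8 had -0.02, 0.35 and 0.29. The lowest subunits at 20 min were RPN12 (-0.17, 0.08 and -0.31), RPN9 (-0.24, 0.08 and 0.05) and RPN6 (-0.05, 0.09 and -0.27), all structural lid subunits. RPN3 had -0.07, 0.33 and 0.27, and RPN7 had 0.12, 0.50 and 0.20.

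What the subunits shared was a highest ratio at 20 min. All 31 subunits had a higher ratio at 20 than at 0 min, and 30 of 31 had their highest ratio at 20 min, where 26.4% of all genes did. Some of these steps were smaller than the median difference of a probe pair, 0.11. From 20 to 60 min they were -0.03 for RPN9 and -0.06 for RPN3 and RPN8. RPN11 rose by 0.04 from 0 to 20 min, also less than 0.11, and its later step was -0.11. The step from 0 to 20 min had a median of 0.75 in the core, 0.38 in the cap and -0.09 over all genes. It reached 2-fold upward in 2 of 31 subunits, PRE3 (2.22) and PUP2 (1.03), against 16.1% of all genes. The step from 20 to 60 min had a median of -0.64 in the core, -0.39 in the cap and 0.16 over all genes. It was 2-fold downward in 5 of 31 subunits (16.1%), against 10.2% of all genes, namely PRE3 (-1.44), RPN1 (-1.44), PRE10 (-1.29), RPN2 (-1.24) and RPT1 (-1.24). Both steps share the 20 min array, so any deviation of that array enters them with opposite sign. The ratio at 60 min was above that at 0 min in 15 of 31 subunits, against 51.1% of all genes, and RPN1, at -1.07, was the only subunit beyond 2-fold, against 13.3% of all genes 2-fold downward.

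**Figure D3:**
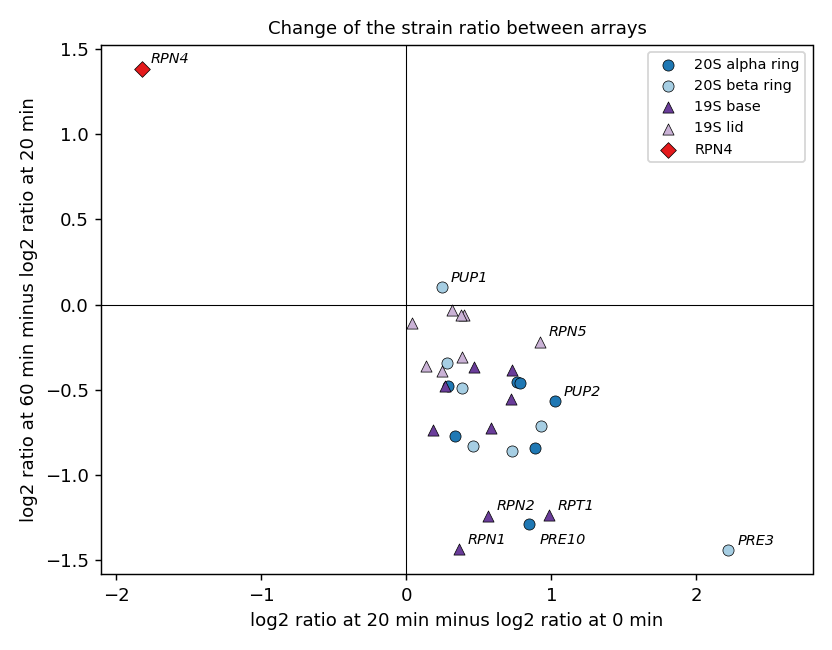
Difference of the log2 ratio between 0 and 20 min (horizontal axis) and between 20 and 60 min (vertical axis) for the 32 genes, coloured by part of the proteasome. Of the subunits 30 lie at lower right, PUP1 lies just above the horizontal line with 0.25 and 0.10, and RPN4 lies at upper left with -1.82 and 1.38.

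The 2-fold line at 20 min divided genes of nearly equal value. Just inside it were PRE2 at 1.02 and PUP2 at 1.03, and just outside RPN2 at 0.94 and PRE1 at 0.90. Of the 8 genes past it, 6 had 2 probes, and in each of the 6 both probes were past 2-fold. Both probes lay on the same side of 0 in 15, 22 and 19 of the 22 genes with 2 probes on the arrays for 0, 20 and 60 min.

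Genes that build, feed and regulate the proteasome were counted from lists, to be read against all genes, of which 17.1% were 2-fold positive and 16.5% 2-fold negative at 20 min, and 16.2% and 13.6% at 60 min. The 2 subunits outside the group, RPN13 and SEM1, were both positive at 20 min. SEM1, a small lid protein, had -0.01, 1.48 and 1.24 at 0, 20 and 60 min, and RPN13, a ubiquitin receptor, 0.21, 0.43 and 0.14. Of 9 assembly chaperones 3 were beyond 2-fold on the positive side and 1 on the negative side at 20 min, with counts of 2 and 0 at 60 min. The negative gene, ADD66, had a probe of low signal at 20 min, and is named here after its value was seen. UMP1, the maturation factor of the core, had -0.10, 1.32 and 1.24, and NAS2, a chaperone of the base, had 0.12, 1.51 and 1.88. UMP1 and NAS2 were above the subunit median at both times after glucose, and at 60 min above RPN5, the highest of the 31 subunits of the group. SEM1 was also above RPN5 at both times. Of 6 proteasome-associated proteins 1 was 2-fold positive at 20 min (16.7%, against 17.1% of all genes) and 2 were 2-fold negative at 60 min (33.3%, against 13.6%). SPG5, an inhibitor of the proteasome's deubiquitinase in stationary yeast, had 0.37, 2.48 and 0.96. UBP6, that deubiquitinase, had 0.33, 0.87 and 0.21. The alternative cap BLM10 had -0.05, -0.78 and -1.88, and the adaptor ECM29, which holds core and cap together, had 0.04, 0.25 and -1.15. One BLM10 probe at 20 min and 1 ECM29 probe at 60 min were at the spacing of low signal.

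**Figure D4:**
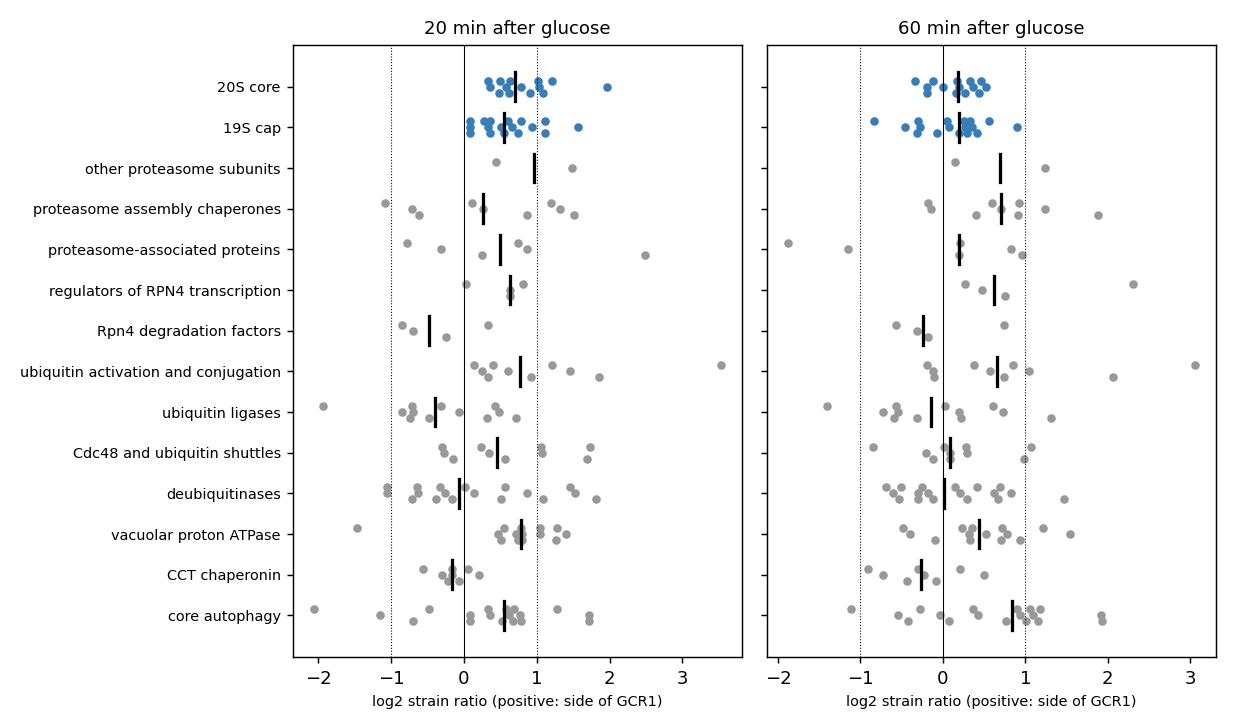
Log2 ratio of the strains (horizontal axes) at 20 min (left) and 60 min (right) for the core and cap subunits (blue) and for each gene of 12 other lists (grey), with list medians as black bars and 2-fold as dotted lines. At 20 min the core and cap points are all right of 0, and the ubiquitin ligases and deubiquitinases spread over both sides.

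Genes acting on RPN4 or its product gave values on both sides of 0. Of the 4 activators of RPN4 transcription, none was negative at 20 min, where 47.1% of all genes were above 0. The multidrug resistance regulator PDR3 had 0.09, 0.64 and 2.31, and its relative PDR1 had 0.18, 0.82 and 0.27. The oxidative stress regulator YAP1 had 0.38, 0.64 and 0.76, and the heat shock factor HSF1 had -0.05, 0.03 and 0.48. PDR3 at 60 min was the 1 value beyond 2-fold, on an array where 16.2% of all genes were 2-fold positive. Among factors that mark Rpn4 for degradation, the ligase UBR2 had -0.29, -0.85 and -0.56, with a probe of low signal at 20 min, and its partner MUB1 had 0.25, -0.24 and -0.18. The ligase UFD4 had 0.25, -0.70 and -0.31, and the conjugating enzyme RAD6 had -0.33, 0.33 and 0.75. None of these 4 reached 2-fold on any array. Of all genes, 17.1% were 2-fold positive and 16.5% 2-fold negative at 20 min, and 16.2% and 13.6% at 60 min.

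Upstream of the proteasome, the ubiquitin activating and conjugating genes were all positive at 20 min, and 4 of 12 ligase genes were. All 10 genes for activation and conjugation were above 0 at 20 min (median 0.77), against 47.1% of all genes, and 4 of them (40.0%) were 2-fold positive, against 17.1% of all genes. The polyubiquitin gene UBI4 had 0.67, 3.53 and 3.06. UBA1, the ubiquitin activating enzyme, had 0.23, 1.86 and -0.12, and the conjugating enzyme UBC4 had 0.04, 1.46 and 2.07. Among the 12 ligase genes (median -0.40 at 20 min), 0 were 2-fold positive and 1 (8.33%) was 2-fold negative at that time, against 17.1% and 16.5% of all genes. HRD1 and SSM4, ligases of the endoplasmic reticulum, differed: HRD1 had 0.71 and 1.31 after 20 and 60 min, and SSM4 -1.93 and -1.41. Of 10 genes for Cdc48 and ubiquitin shuttles, 4 (40.0%) were 2-fold positive at 20 min, against 17.1% of all genes, and 1 of 10 at 60 min, against 16.2%. CDC48, the segregase that hands substrates to the proteasome, had 0.49, 1.73 and -0.20, and its cofactor UBX2 had 0.13, 1.69 and 1.07. UBX5, another cofactor, had 0.23, 1.06 and 0.98. Of the 18 deubiquitinases (median -0.07 at 20 min), 4 (22.2%) were 2-fold positive and 2 (11.1%) were 2-fold negative at that time, against 17.1% and 16.5% of all genes. UBP15 had 1.81 and 0.70 at 20 and 60 min, OTU1 had 1.52 and 1.47 with a probe of low signal at 20 min, and UBP14 had 0.14 and 0.82.

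Other multi-subunit machines gave a measure of how alike genes of a complex can be on these arrays. The 31 subunits had a middle 50% of 0.36 to 0.98 at 20 min, against -0.70 to 0.64 for all genes. The vacuolar proton ATPase, with 14 genes, reached 0.79 as its median after 20 min, with a middle 50% of 0.60 to 1.05. Its medians were 0.23 at 0 min and 0.44 at 60 min. Its steps had medians of 0.61 from 0 to 20 min and -0.23 from 20 to 60 min. At 20 min 13 of its 14 genes were above 0, against 47.1% of all genes. Of the 14, 5 (35.7%) were 2-fold positive and 1 (7.14%) was 2-fold negative at 20 min, against 17.1% and 16.5% of all genes. The share of proteasome subunits 2-fold positive on that array was 25.8%. The gene below 0 was STV1, which encodes the alternative Golgi form of a subunit, at 0.54, -1.46 and -0.40, and the highest was VMA11 (1.40) after 20 min, and VMA4 (1.54) and VMA13 (1.21) after 60 min. The CCT chaperonin, which folds actin and tubulin, had 8 genes with medians of 0.30, -0.16 and -0.26. Of these 8, 0 were beyond 2-fold on any array. Among all genes 17.1% were 2-fold positive and 16.5% 2-fold negative at 20 min, and 16.2% and 13.6% at 60 min. CCT4 and CCT5 had -0.30 and -0.57 after 20 min, and CCT5 and CCT6 -0.72 and -0.91 after 60 min. Core autophagy genes, the other route of bulk protein breakdown, had medians of 0.07, 0.55 and 0.84 on the 3 arrays. After 20 min 3 of 18 were 2-fold positive (16.7%, against 17.1% of all genes) and 2 were 2-fold negative (11.1%, against 16.5%). After 60 min these counts were 7 (38.9%, against 16.2%) and 1 (5.56%, against 13.6%). Among them ATG8 had 1.72 and 1.92, ATG5 1.28 and 1.93, and ATG14, with a probe of low signal at both times, -2.06 and -0.54. The difference between these complexes and the proteasome could not be tested with 1 array per time point.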

How the data were processed

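The deposited table held 1 log2 ratio of the Cy5 and Cy3 channels for each of 10807 probes on each of 3 arrays. Per the labels, Agilent's low-input linear amplification kit produced the cRNA. No source used here names the scanner software, background correction, normalisation or probe design build. The log base was read from the values, whose ties are spaced like log2 ratios of small whole numbers. Medians over all probes were 0.02, -0.15 and -0.08 at 0, 20 and 60 min, so the arrays were not centred. Probes were named through the platform annotation (9202 with a symbol), and RefSeq R64 gave locus tags for all 32 genes. Probes of a gene were averaged (Python 3.11.15, pandas 2.3.3). A gene was counted at 2-fold. Low signal meant a value no farther than 0.001 from a log2 ratio formed by whole numbers up to 8, after an offset per array. The offset was the value that matched most probes, and at 60 min it is known only up to factors of small whole numbers. Without intensities, a match alone does not establish that a probe had low signal. Precision is limited by the number of arrays, and intensities were not used here. Counting was checked on simulated data. No test was possible.

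The 32 genes and all lists were chosen with earlier results of these data known. For each list the text names the members of largest size at 20 and 60 min, all 4 members of the 2 RPN4 lists, and all 32 proteasome genes. Alternatives were the threshold, centring, scaling to equal spread, other summaries over probes or members, and leaving out low signals or values of exactly 0. A search of promoters for motifs was not run, since no sequences were used here.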

Additional observations from a re-analysis of the deposited data

Results flagged for a closer look

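RPN1, the large base scaffold, lay on opposite sides of 0 at the later times, with 0.61 at 20 min and -0.83 at 60 min, each farther from 0 than 95% of probe pairs differ on its array. The difference of -1.44 was not tested, since each time has 1 array, and RPN1 was read by 1 probe. It was the only one of the 32 genes with such a pair of values.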

How the results depend on the processing

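For the subunit counts, the core and cap medians, their difference and RPN4, 129 values were recomputed. Of these, 120 moved by less than the spread of probe pairs or, for counts, stayed within 1.5 times. Many of the 120 could not move. The median over probes, with 18 values, equals the mean for genes with 1 or 2 probes. Centring cannot change the core minus cap difference, and RPN4 has a single probe. Leaving out low signals removed 1 probe of the 32 genes, of PRE6 at 60 min. The only ratio or median beyond 2-fold, RPN4 at 20 min, kept its sign. At a threshold of 1.5-fold, the positive subunits numbered 1, 17 and 1 at 0, 20 and 60 min, and 1 was negative at 60 min. At 3-fold, 1 subunit was positive at 20 min. Shares of all genes at 1.5-fold and 3-fold were not counted, so these counts have no background to be read against. Centring the arrays and also scaling them to equal spread, which by construction widens the 0 min array and narrows the others, gave 1 subunit beyond 2-fold at 0 min and 2 at 20 min, all positive, and centring alone gave 0 and 9. The combined setting put RPN4 at 0.71 at 0 min and -1.03 at 20 min, and centring alone put it at 0.29 and -1.38. Of all genes, 12.8% were 2-fold positive at 20 min in the combined setting, 18.5% with centring alone and 17.1% as deposited. At 0 min these shares were 8.42%, 0.88% and 1.09%. Among only the genes beyond 2-fold to either side at 20 min, 61.1% were positive in the combined setting. That part was 56.2% with centring alone and 50.9% as deposited. After centring each array on its median gene, 18, 31 and 20 of the 31 subunits were positive at 0, 20 and 60 min. No paired analysis was possible because each time point has 1 array and no test was run.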

Other observations

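Gene length moved with the ratio. Over 5588 genes, Spearman's correlation with the length of the gene was 0.27 at 0 min, -0.18 at 20 min and -0.14 at 60 min, as a description across genes that share arrays. Over the 110 genes of the other lists it was 0.20, -0.38 and -0.45. Over the 31 subunits it was 0.26, -0.07 and -0.08, and within the 17 cap genes 0.44, 0.50 and 0.11. Pearson's correlation with log2 length in the cap was 0.31 at 20 min and -0.34 at 60 min. For all genes that correlation was -0.16 and -0.10. The cap thus differed in sign from all genes at 20 min by both measures, and at 60 min its sign depended on the measure. Genes of 2500 bases or more had medians of 0.14, -0.34 and -0.27 at 0, 20 and 60 min, and genes under 900 bases -0.05, 0.11 and 0.24. RPN1 and RPN2, at 2982 and 2838 bases, are the 2 subunits in the longest class. At 60 min they had -0.83 and -0.30, the sign of that class, and at 20 min 0.61 and 0.94, the opposite sign. Single genes of the other lists lay on both sides of the trend, with BLM10 (6432 bases) at -1.88 and PDR3 (2931 bases) at 2.31 at 60 min, and UMP1 (447 bases) at 1.32, POC4 (447 bases) at -0.62 and UBA1 (3075 bases) at 1.86 at 20 min. These were chosen after their values were seen. The part of length in these values was not tested.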
